A study of Homo sapiens with 6 samples.

Results

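The collagen genes were read here as the regions of open chromatin that the authors' tables name for a gene whose symbol is COL, a number, A and a number, at any distance. The rule found 1027 regions named for 43 genes, of 226920 regions and 19059 gene names in the series, and it used names only, no measured value. Of the 44 human collagen genes in the list used, COL10A1 was the one for which no region is named. Accessibility had been measured by ATAC-seq, which reads where a transposase can cut into chromatin, in A375, an established human melanoma line that carries an activating BRAF mutation. Cells were given recombinant HMGA1 (reHMGA1) for 2 h or for 18 h, or were left untreated (mock), with 2 libraries in each of the 3 groups. The labels used here give no dose of the protein and no time for mock, and the cells of all groups were frozen and thawed before the nuclei were made. All groups are the same line, and the labels call the 2 libraries biological replicates without naming separate cultures. The p-values therefore rest on the spread between single libraries, which may be technical.

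Collagens are secreted proteins built of 3 chains whose repeated glycine triplets wind into a triple helix. Fibrillar collagens such as types I, III and V form the fibres of skin, type IV forms the sheet of the basement membrane that a melanoma has to cross, and type VII anchors that sheet to the dermis. The fibril-associated collagens with interrupted helices (FACIT) sit on fibres, type VI forms beaded filaments, and a few collagens span the cell membrane. HMGA1 is a small nuclear protein that contacts AT-rich stretches of DNA through short AT-hook motifs.

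The DNA at 3 starts is shown first. They are the shared start of COL4A1 and COL4A2 and that of COL5A1, since these genes held 13 of the 31 calls at 18 h against 2 h, and that of COL7A1, whose start region was the one collagen start region called. The 32 called regions themselves lie outside the printed stretches, and their sequences are not shown. COL4A1 and COL4A2, which encode the chains of the most abundant type IV collagen, are transcribed away from each other, and their starts share a single open region. The 126 bases between both starts (chr13:110307158-110307283, plus strand) contain 1 CCAAT box and 1 GC box. For COL5A1, which encodes a chain of a minor collagen that controls fibre width, and for COL7A1, which encodes the anchoring fibril collagen, the 250 bases before the start are given (chr9:134641553-134641802, plus strand, and chr3:48595330-48595579, minus strand). All are from RefSeq on GRCh38.p14, written 5′ to 3′ along the strand named, and capitals mark the GC box (GGGCGG) and the CCAAT box (CCAAT) on either strand.
COL4A1-COL4A2: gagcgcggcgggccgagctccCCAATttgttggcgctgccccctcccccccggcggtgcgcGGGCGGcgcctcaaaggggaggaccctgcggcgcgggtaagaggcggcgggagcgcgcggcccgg
COL5A1: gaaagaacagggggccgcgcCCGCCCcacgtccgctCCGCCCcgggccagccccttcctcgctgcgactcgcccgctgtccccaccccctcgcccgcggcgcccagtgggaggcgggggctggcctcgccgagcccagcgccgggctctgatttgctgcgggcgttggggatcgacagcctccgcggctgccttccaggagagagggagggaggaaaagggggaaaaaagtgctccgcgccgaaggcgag
COL7A1: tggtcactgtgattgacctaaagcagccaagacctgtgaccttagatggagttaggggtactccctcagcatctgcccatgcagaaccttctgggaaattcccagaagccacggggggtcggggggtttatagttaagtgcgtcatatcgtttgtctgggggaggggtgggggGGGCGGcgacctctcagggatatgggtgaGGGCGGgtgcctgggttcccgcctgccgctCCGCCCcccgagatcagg

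The shared type IV start was 19.8% A and T, the COL5A1 stretch 26% and the COL7A1 stretch 39.2%. The longest run of A and T in these stretches was 5, 6 and 6 bases. RefSeq gave windows from 250 bases before to 50 after the start for 31 of the 43 collagen genes, 41 windows in all, and their median A and T share was 34.3%, against 41.3% over 35116 windows of all genes. A GC box was found in 24 of the 41 windows (58.5%), against 45.0% of all windows, and a CCAAT box in 12 (29.3%), against 34.6%. The TATA box (TATAAA) was found in 6 collagen windows (14.6%, against 11.5% of all) and the AP-1 motif (TGANTCA) in 0 (against 7.71%), both strands searched. These matches describe letters in the windows and are not shown to be bound sites.

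Most collagen regions were weakly open, like most regions in the series. The tables give 1 mean signal per region over the 6 libraries (reads divided by size factors), and its median was 38.3 over the 1027 collagen regions, against 39.3 over all regions. Nearly all collagen regions, 1026 of them, were 501 bases wide, so their signals can be compared with each other. Within 1 kb of a gene start lay 36 collagen regions, which served 28 of the 43 genes. The median signal of these 36 was 110, against 254 over 17089 such start regions of all genes.

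The start with the highest signal was that of COL7A1, at 705 in the authors' deposited table, above 87.9% of all start regions. COL12A1, a FACIT gene, followed at 420, COL8A1, which encodes a network collagen of vessel walls and the eye, at 417, and the shared COL4A1 and COL4A2 start at 413. COL9A2, a cartilage FACIT gene, stood at 398 and COL5A1 at 379 in the authors' deposited table. COL27A1, with 297, was the remaining gene above the median start region. Each gene is given here by its strongest start region, while the comparison with all start regions counts every region of a gene. The genes of the main skin collagens were low or had no start region. COL1A2 had 57.4 at a region 764 bases into the gene in the authors' deposited table, COL1A1 had no region within 1 kb but one of 365 at 1.12 kb, inside the gene, and the nearest COL3A1 region, at 3.86 kb, had 58.3. With each gene taken by its strongest start region, the lowest signals were those of COL8A2 (33.0) and COL24A1 (27.9).

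**Figure D1:**
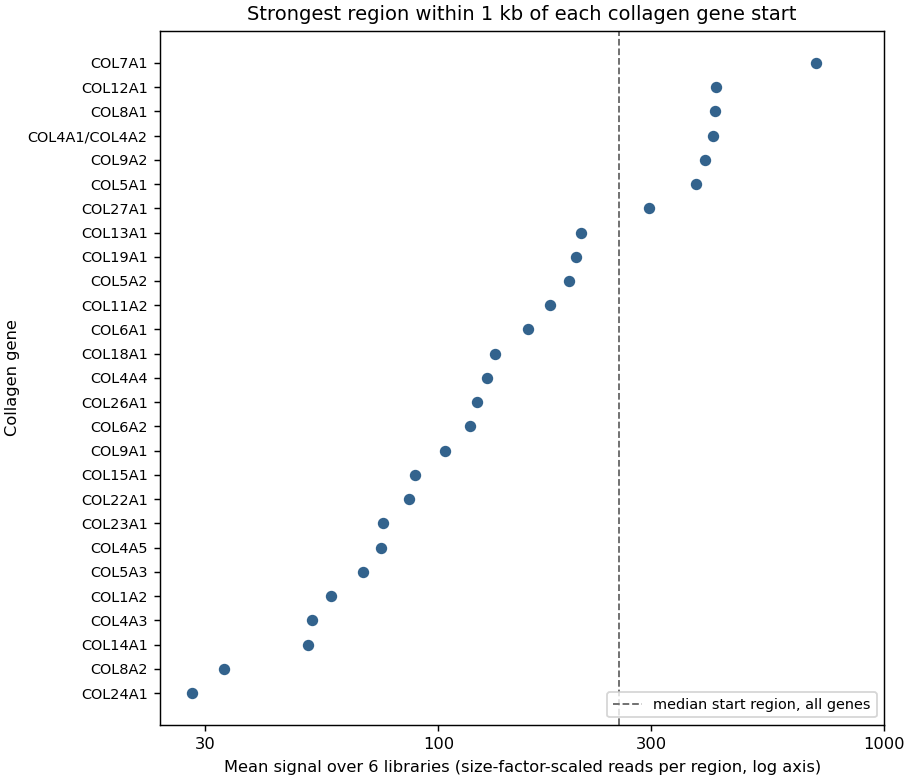
Mean signal over the 6 libraries (log axis) of the strongest region within 1 kb of the start, for the 28 collagen genes that have one, with COL4A1 and COL4A2 sharing a region. COL7A1 stands at 705 and COL24A1 at 27.9, and the dashed line marks 254, the median start region of all genes.

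As a check of the line, 4 of 8 melanocyte lineage genes had a region within 1 kb of their start (MITF 694, PAX3 302, PMEL 298 and SOX10 63.8 in mean signal), and none is listed for MLANA, TYR, TYRP1 and DCT. Of markers of other cell types, 2 of 4 keratinocyte genes had such a region (26.9 to 69.4), 1 of 4 immune genes (24.2), 1 of 4 endothelial genes (KDR, 197) and 4 of 7 fibroblast genes (57.4 to 448, the highest at PDGFRB). The fibroblast list includes COL1A1, COL1A2 and COL3A1 themselves. The tables hold no value for a single library, so the depth of each library is unknown. The mean signal was the same in every table and the 3 comparisons came from 1 fit over all 6 libraries, so they share libraries and are given side by side.

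The comparison of 2 h with mock asked what changed soon after the protein was added. A call here means an adjusted p under 0.05 in the authors' DESeq2 fit. After 2 h, 6 of the 374 collagen regions tested were higher than in mock and 0 were lower, at 5 genes. That is 1.60% of the collagen regions tested, against 1.28% of all 86137 regions tested, with 0.856% of all higher and 0.421% lower. An unadjusted p under 0.05 was found for 42 collagen regions (11.2%, against 10% of all). The median log2 fold change was -0.01 over the tested collagen regions and -0.06 over all tested regions. The collagen share lay near that of all regions.

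The clearest rise at 2 h was at a region of COL4A2 (chromosome 13, 110485490 to 110485991), 178 kb from the start and inside the gene. Its level, as implied by the deposited mean signal and both fold changes against mock, was 307 at 2 h, 113 at 18 h and 151 in mock. The level at 2 h stood above both others, and the difference between 18 h and mock was not called (-0.42 ± 0.19, DESeq2 adjusted p = 0.529, authors' deposited table). The authors' deposited table gave a log2 fold change of 1.02 ± 0.18 (SE; DESeq2 adjusted p = 1.03e-05) at 2 h, which is 2.03-fold. A second COL4A2 region, 40.6 kb into the gene (chromosome 13, 110347885 to 110348386), had implied levels of 383 at 2 h, 245 at 18 h and 270 in mock. It rose by 0.50 ± 0.14 (SE; DESeq2 adjusted p = 0.0296) at 2 h in the authors' deposited table.

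The other regions that rose at 2 h were named for COL5A1, COL26A1, COL11A1 and COL13A1. The COL5A1 region, 38.7 kb upstream of the start (chromosome 9, 134602540 to 134603041), was among the strongest collagen regions, with implied levels of 857 at 2 h, 582 at 18 h and 656 in mock. Its log2 fold change was 0.38 ± 0.10 (SE; DESeq2 adjusted p = 0.0128) in the authors' deposited table. For COL26A1, which encodes a little-studied collagen first found in testis and ovary of the mouse, a region 39.2 kb into the gene had implied levels of 231 at 2 h, 120 at 18 h and 141 in mock, and 0.72 ± 0.19 (SE; DESeq2 adjusted p = 0.0211) in the authors' deposited table.

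COL11A1 encodes a fibrillar chain of cartilage that is also made by tumour stroma. A weak region 71.7 kb upstream of it had implied levels of 88.8 at 2 h, 50.9 at 18 h and 41.8 in mock. With 1.09 ± 0.31 (SE; DESeq2 adjusted p = 0.0367) in the authors' deposited table, it had the highest fold change of any tested collagen region at 2 h (2.12-fold), and also the lowest mean signal of the 6. COL13A1 encodes a transmembrane collagen of cell junctions, and a region 5.18 kb into it had implied levels of 135 at 2 h, 68.9 at 18 h and 75.0 in mock. It rose by 0.84 ± 0.24 (SE; DESeq2 adjusted p = 0.0446) in the authors' deposited table.

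Without the authors' filter on low signal, 4 of the 2 h calls were lost. With all 1027 regions and all others adjusted together, the COL4A2 region at 178 kb and the COL5A1 region kept their calls, and the others did not (DESeq2 p-values adjusted anew, from 0.0519 for COL26A1 to 0.109 for COL13A1). Centring the fold changes within bins of mean signal gave 11 higher and 0 lower collagen calls, adding regions of COL4A1, COL4A2, COL5A1 and COL11A1. Over all regions that centring gave 1249 higher and 173 lower calls, against 737 higher and 363 lower as deposited.

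**Figure D2:**
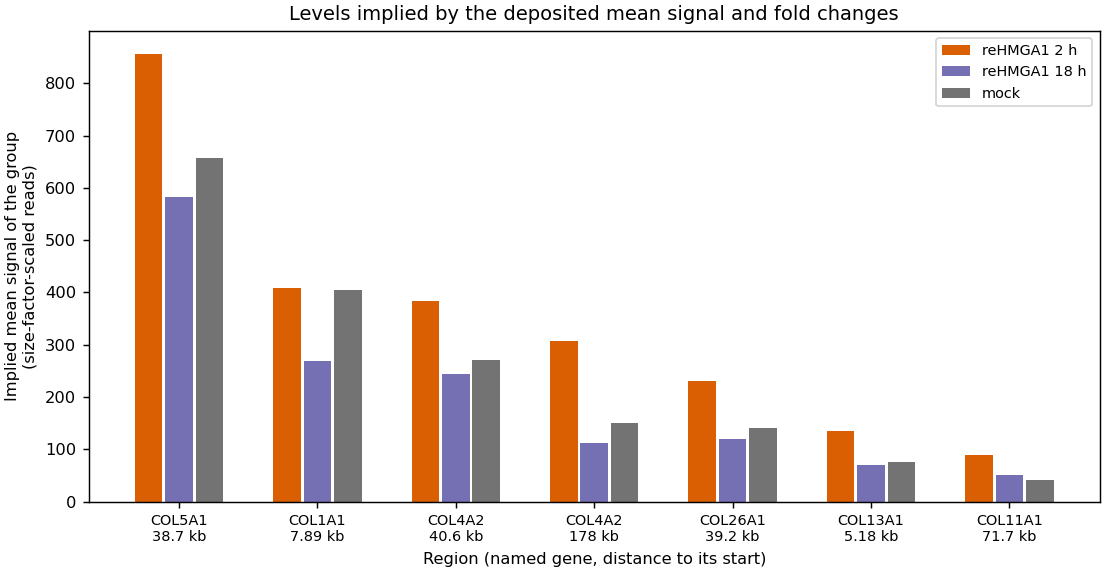
Implied mean signal (size-factor-scaled reads, axis from 0) at 2 h, at 18 h and in mock for the 7 collagen regions called against mock, each named by gene and distance to its start. The levels are approximations from the authors' fit with no error bar, and 6 of the regions were chosen for a higher level at 2 h than in mock, such as COL4A2 at 178 kb (307, 113 and 151), while COL1A1 was chosen for a lower level at 18 h than in mock (409, 270 and 405).

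In the classes of collagens with no call at 2 h, the regions with the smallest p had an adjusted p of 0.121 or more. For FACIT genes this was a COL12A1 region 474 kb downstream of the start (-0.44 ± 0.15, SE; DESeq2 adjusted p = 0.121, authors' deposited table), and for multiplexins, whose fragments can block vessel growth, a COL15A1 region of very high signal (-0.22 ± 0.08; DESeq2 adjusted p = 0.215, authors' deposited table). For the network, beaded filament and anchoring fibril classes the authors' deposited table gave COL8A1 -0.43 ± 0.17, COL6A1 -0.19 ± 0.10 and COL7A1 0.08 ± 0.09, with DESeq2 adjusted p-values of 0.239, 0.515 and 0.879.

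The comparison of 18 h with mock asked what was present after the longer exposure. After 18 h, 1 of 247 tested collagen regions was lower than in mock and 0 were higher. The share called was 0.405%, against 0.121% of all 55341 regions tested (0.116% lower and 0.00542% higher), and 26 collagen regions had an unadjusted p under 0.05 (10.5%, against 7.89% of all). The median log2 fold change was -0.10 over the tested collagen regions, against -0.07 over all. The called region lay 7.89 kb upstream of COL1A1, which encodes the main chain of type I collagen (chromosome 17, 50209522 to 50210023). Its implied levels were 409 at 2 h, 270 at 18 h and 405 in mock, with the lowest level at 18 h. The log2 fold change at 18 h was -0.59 ± 0.13 (SE; DESeq2 adjusted p = 0.0172), and at 2 h it was 0.02 ± 0.13 (adjusted p = 0.991), both from the authors' deposited table. This call ended when the DESeq2 fold changes were centred on the median tested region (adjusted p = 0.137) or within bins of mean signal (adjusted p = 0.196), and without the filter on low signal (adjusted p = 0.0613).

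The other collagen regions at 18 h did not pass. The closest was a COL5A3 region 1.15 kb into the gene, which had implied levels of 210 at 2 h, 131 at 18 h and 215 in mock, and -0.72 ± 0.18 (SE; DESeq2 adjusted p = 0.0533) in the authors' deposited table. COL17A1, which encodes the transmembrane collagen of hemidesmosomes, had -0.58 ± 0.16 (DESeq2 adjusted p = 0.114, authors' deposited table) and COL7A1, at 3.05 kb upstream, -0.38 ± 0.11 (DESeq2 adjusted p = 0.116, authors' deposited table). In the other classes the smallest adjusted p was 0.184 for COL16A1, 0.237 for COL4A2, 0.285 for COL6A3, 0.493 for COL8A1, 0.633 for COL15A1 and 0.844 for COL28A1. The remaining type I and III regions showed no call either. For the COL1A1 region at 1.12 kb, the strongest of that gene, the authors' deposited table gave -0.20 ± 0.14 at 2 h and -0.17 ± 0.13 at 18 h. For COL3A1, 0 of 6 regions were strong enough to be tested at 18 h.

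The last comparison set 18 h directly against 2 h. At 18 h, 30 of 483 tested collagen regions were lower than at 2 h and 1 was higher, at 17 genes. That is 6.42% of the collagen regions tested, against 3.48% of all 108134 regions tested (2.98% lower and 0.498% higher). An unadjusted p under 0.05 was found for 77 collagen regions (15.9%, against 11.6% of all). The median log2 fold change was -0.06 over the collagen regions and 0.01 over all. Of the 31 calls, 13 lay at COL4A1, COL4A2 and COL5A1. Without these 3 genes, which were set aside after the values were seen, 18 of 408 regions were called (4.41%, against 3.48% of all).

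**Figure D3:**
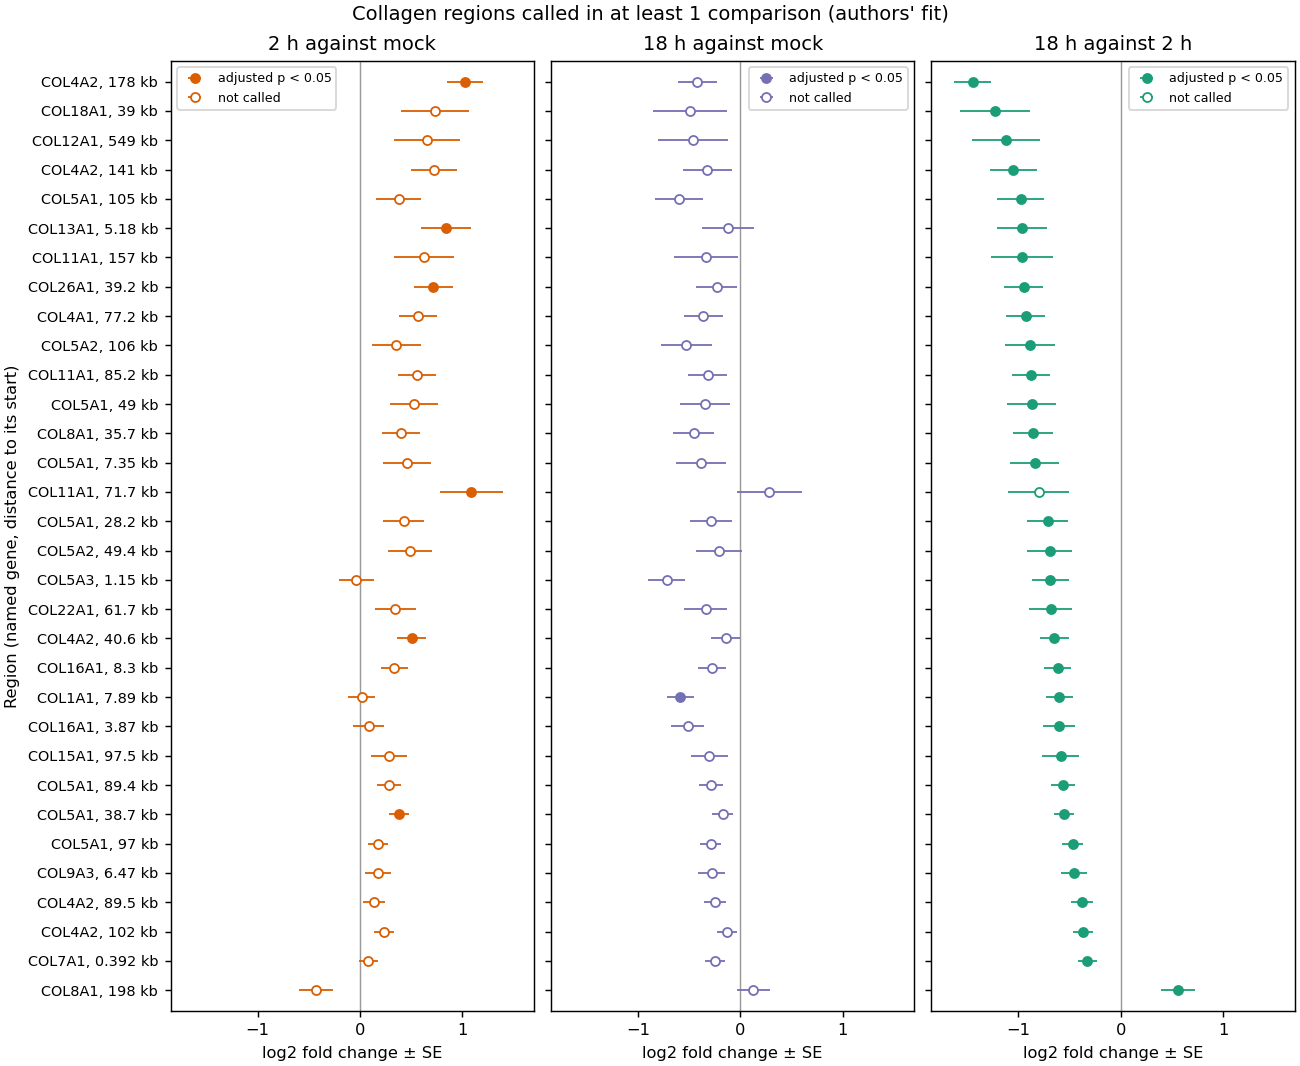
Log2 fold change ± SE of the 32 collagen regions called in at least 1 comparison, ordered by 18 h against 2 h, with filled points where the authors' adjusted p was under 0.05. At 2 h against mock 6 points are filled, at 18 h against mock 1 (COL1A1), and at 18 h against 2 h 31, from -1.45 at COL4A2 to 0.56 at COL8A1.

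For the 30 regions lower at 18 h than at 2 h, the values against mock can be set side by side. Against mock, their log2 fold changes ran from -0.04 to 1.02 at 2 h, with a median of 0.39, and from -0.72 to -0.12 at 18 h, with a median of -0.32. Of these regions 28 were tested against mock at 2 h, with 5 called and 16 at an unadjusted p under 0.05, and 26 at 18 h, with 1 called and 13 at an unadjusted p under 0.05. The ranges and medians cover all 30. The comparisons share libraries, and choosing regions that were lower at 18 h than at 2 h favours high values at 2 h and low values at 18 h, so these values are a description.

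The type IV genes COL4A1 and COL4A2 held 6 of the calls, among 44 tested regions (13.6%, against 3.48% of all tested regions), all inside the genes, which run from 110148963 to 110307157 and from 110307284 to 110513209 on chromosome 13. The COL4A2 region at 178 kb led all collagen regions, 2.72-fold lower at 18 h than at 2 h (log2 fold change -1.45 ± 0.18, SE; DESeq2 adjusted p = 6.80e-12, authors' deposited table). Elsewhere in COL4A2, the authors' deposited table gave -1.05 ± 0.23 at 141 kb (DESeq2 adjusted p = 0.000542), -0.65 ± 0.14 at 40.6 kb (0.000470) and -0.37 ± 0.10 at 102 kb (0.00771). The last COL4A2 call, at 89.5 kb, had -0.38 ± 0.11 (DESeq2 adjusted p = 0.0196, authors' deposited table) and a strong implied level of 495 at 18 h and 642 at 2 h. In COL4A1 the called region lay 77.2 kb into the gene, at implied levels of 115 at 18 h and 219 at 2 h, with -0.93 ± 0.19 (DESeq2 adjusted p = 0.000135, authors' deposited table). Their shared start region, of which 126 of 501 bases are printed above, was not called in any comparison. Against mock, the authors' deposited table gave 0.07 ± 0.12 at 2 h and -0.17 ± 0.12 at 18 h. At 18 h against 2 h it gave -0.24 ± 0.12 (DESeq2 adjusted p = 0.430). Other type IV genes, COL4A3 to COL4A6, whose chains are made in fewer tissues, had 0 of their regions called by DESeq2 in any comparison. Of all tested regions 1.28% were called at 2 h against mock, 0.121% at 18 h against mock and 3.48% at 18 h against 2 h. In this last comparison only 5, 3, 1 and 5 regions of COL4A3, COL4A4, COL4A5 and COL4A6 were tested, and no more against mock. With so few tested, 0 calls does not set these genes apart from all regions.

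COL5A1, which spans 134641803 to 134844843 on chromosome 9, held 7 of the calls among 31 tested regions (22.6%, against 3.48% of all). Upstream of its start 5 of 12 tested regions were called, over 38.7 to 105 kb (chromosome 9, 134535994 to 134603041), in a stretch that no protein-coding gene of RefSeq overlaps at the called regions. The nearest of these had -0.56 ± 0.10 (DESeq2 adjusted p = 4.70e-06, authors' deposited table), at implied levels of 582 at 18 h and 857 at 2 h. The next, at 49.0 kb, was weaker, with implied levels of 74.1 at 18 h and 136 at 2 h and -0.87 ± 0.24 (DESeq2 adjusted p = 0.0118, authors' deposited table). At 89.4, 97.0 and 105 kb upstream the authors' deposited table gave -0.57 ± 0.11, -0.47 ± 0.10 and -0.98 ± 0.23, with DESeq2 adjusted p-values of 0.000144, 0.000329 and 0.00184. Within the gene the called regions lay at 7.35 kb (-0.84 ± 0.24, DESeq2 adjusted p = 0.0184) and 28.2 kb (-0.71 ± 0.20, DESeq2 adjusted p = 0.0179) in the authors' deposited table. COL5A1's own start region, which overlaps the printed sequence, had 0.06 ± 0.13 (DESeq2 adjusted p = 0.967) at 18 h against 2 h and -0.18 ± 0.13 at 2 h against mock in the authors' deposited table.

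**Figure D4:**
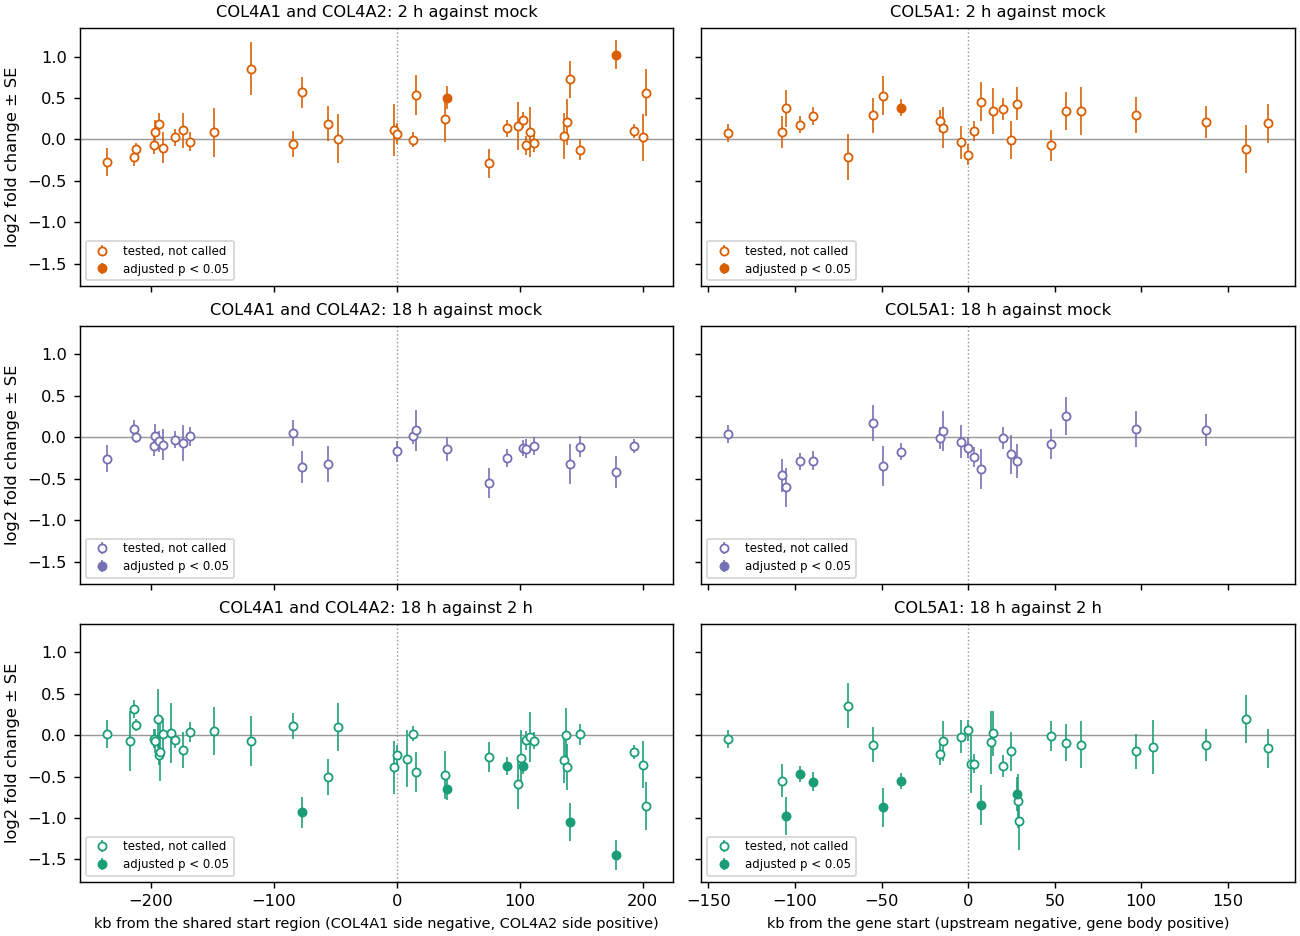
Log2 fold change ± SE of the tested regions of COL4A1 and COL4A2 (left) and COL5A1 (right) by distance from the gene start in kb, for 2 h against mock, 18 h against mock and 18 h against 2 h, with filled points where the authors' adjusted p was under 0.05. The filled points of 18 h against 2 h lie away from the starts, the lowest at -1.45 in COL4A2, while the points at both starts lie between -0.24 and 0.07.

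Of the other fibrillar genes, COL1A1, COL5A2, COL5A3 and COL11A1 held the remaining 6 calls of their class, which had 13 of 129 tested regions called (10.1%, against 3.48% of all). Of those 13, COL5A1 held 7. The COL1A1 region upstream had -0.60 ± 0.13 (DESeq2 adjusted p = 0.000696) and the COL5A3 region -0.69 ± 0.18 (DESeq2 adjusted p = 0.00904) in the authors' deposited table, and neither differed from mock at 2 h beyond its SE. COL5A2 encodes the partner chain of COL5A1, and its regions at 106 and 49.4 kb from the start, on either side of it and both inside the RefSeq span, had -0.88 ± 0.25 and -0.69 ± 0.22 (DESeq2 adjusted p = 0.0143 and 0.0466, authors' deposited table). The COL11A1 regions 85.2 and 157 kb upstream had -0.87 ± 0.19 and -0.96 ± 0.30 (DESeq2 adjusted p = 0.000337 and 0.0429, authors' deposited table). The COL11A1 region that rose at 2 h had -0.80 ± 0.30 and was not called at 18 h against 2 h (DESeq2 adjusted p = 0.130, authors' deposited table). COL1A2 had 0 of 15 tested regions called and COL3A1 0 of 5 (against 3.48% of all), with smallest DESeq2 adjusted p-values of 0.281 and 0.304. An unadjusted p under 0.05 was found for 2 of the 15 and 1 of the 5 (13.3% and 20%, against 11.6% of all).

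Among FACIT genes 5 of 116 tested regions were lower (4.31%), a share near the 2.98% of all tested regions that were lower. COL16A1, whose product sits at fibres and at cell contacts in skin, had 2 of them, 8.30 and 3.87 kb upstream, with -0.62 ± 0.14 (DESeq2 adjusted p = 0.000578) and -0.60 ± 0.16 (0.00794) in the authors' deposited table. The implied levels were 264 at 18 h and 404 at 2 h for the first and 181 at 18 h and 275 at 2 h for the second. COL9A3 had -0.46 ± 0.13 (DESeq2 adjusted p = 0.0181) 6.47 kb into the gene, COL22A1, which marks tissue junctions, -0.68 ± 0.21 (0.0335) 61.7 kb upstream, and COL12A1 -1.12 ± 0.33 (0.0264) 549 kb downstream of its start, in the authors' deposited table. The COL12A1 region was weak, with a mean signal of 51.9, and the name says only that its start was the one assigned.

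The remaining calls were spread over single genes. COL26A1 and COL13A1, which had risen at 2 h, had -0.95 ± 0.19 (DESeq2 adjusted p = 0.000148) and -0.97 ± 0.24 (0.00502) at 18 h against 2 h in the authors' deposited table. The multiplexin genes had 2 of 31 tested regions lower (against 2.98% of all), COL18A1, whose product yields endostatin and whose region was too weak to be tested against mock, with -1.23 ± 0.34 (DESeq2 adjusted p = 0.0159) 39.0 kb upstream and COL15A1 with -0.59 ± 0.18 (0.0350) 97.5 kb into the gene, in the authors' deposited table. COL8A1 held a call in each direction. A region 35.7 kb into that gene had implied levels of 110 at 18 h and 199 at 2 h and -0.86 ± 0.19 (DESeq2 adjusted p = 0.000995), and one 198 kb upstream had 247 at 18 h and 168 at 2 h and 0.56 ± 0.17 (0.0270), in the authors' deposited table. The region upstream of COL8A1 was the single collagen region higher at 18 h than at 2 h.

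COL7A1 gave the single call within 1 kb of a collagen start. Its region, 392 bases upstream (chromosome 3, 48595659 to 48596160), begins 80 bases beyond the printed sequence, and its implied levels were 615 at 18 h, 771 at 2 h and 729 in mock. The log2 fold change was -0.33 ± 0.10 (SE; DESeq2 adjusted p = 0.0240) at 18 h against 2 h in the authors' deposited table, a 1.25-fold difference and the smallest among the collagen calls. The type VI genes had 0 of 37 tested regions called by DESeq2 (against 3.48% of all), with 4 at an unadjusted p under 0.05 (10.8%, against 11.6% of all), and the smallest adjusted p was 0.0914, for a COL6A3 region (-0.66 ± 0.23, authors' deposited table). At 18 h against 2 h, 26 collagen genes had no region called, COL2A1 (0 of 10 tested) and COL27A1 (0 of 17) among them. Of all tested regions 3.48% were called in that comparison, so 0 calls among so few does not set either gene apart.

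**Figure D5:**
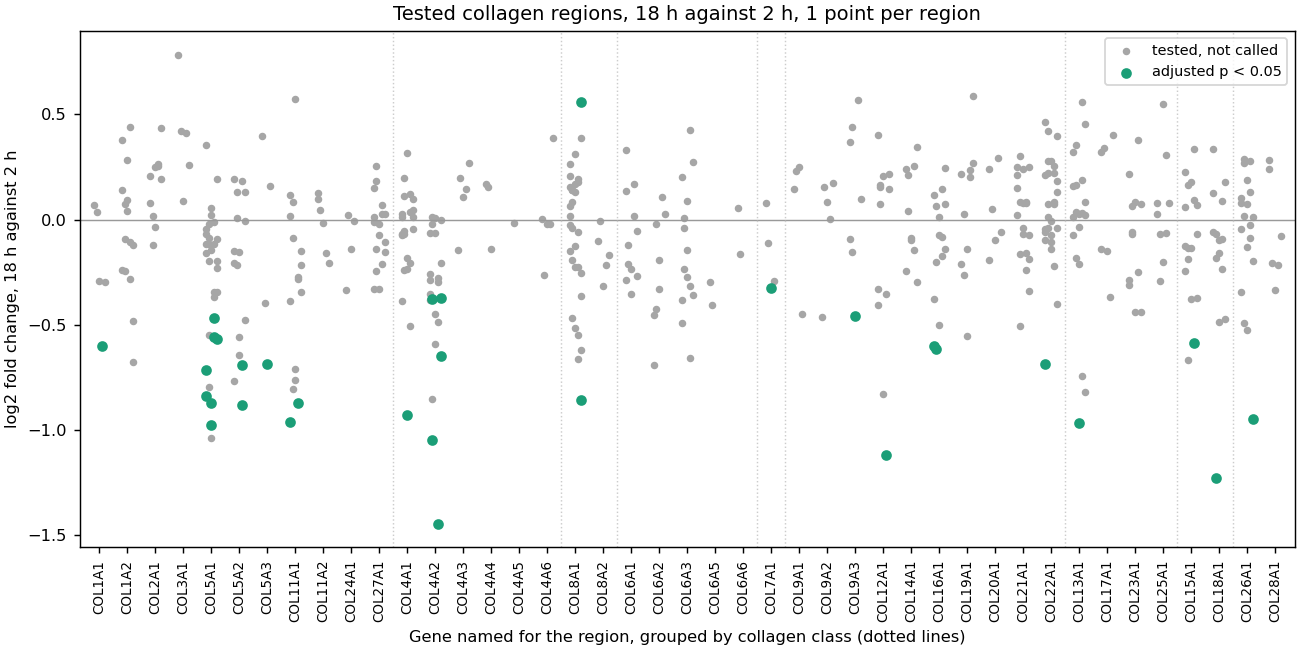
Log2 fold change at 18 h against 2 h of each of the 483 tested collagen regions, by the gene named and grouped by class, with coloured points where the authors' adjusted p was under 0.05. Coloured points lie below 0 except 1 of COL8A1, and COL5A1 with 7 and COL4A2 with 5 hold the most.

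The 6 regions of these genes that lost their call at 18 h against 2 h without the filter on low signal were those of COL12A1, COL15A1, COL22A1, the higher one of COL8A1, COL11A1 at 157 kb and COL5A2 at 49.4 kb (adjusted p from 0.0532 to 0.0927).

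At gene starts, 0 of 26 tested collagen regions were called by DESeq2 at 2 h, against 0.167% of all start regions, and 0 had an unadjusted p under 0.05, against 7.39% of all. At 18 h against mock 0 of 19 were called by DESeq2, against 0.0178% of all, and 1 had an unadjusted p under 0.05, against 2.26% of all. At 18 h against 2 h 1 of 28 was called, against 0.4% of all, and 2 had an unadjusted p under 0.05, against 3.67% of all. The collagen start regions had median log2 fold changes of -0.07, -0.12 and -0.02 in these comparisons, and all start regions -0.11, -0.05 and 0.05. In the authors' deposited table the smallest p-values at starts against mock were those of COL5A1 (-0.18 ± 0.13), COL12A1 (0.16 ± 0.12), COL9A1 (-0.31 ± 0.24) and COL8A1 (0.15 ± 0.13) at 2 h, with DESeq2 adjusted p-values from 0.707 to 0.788. At 18 h they were those of COL7A1 (-0.25 ± 0.10), COL18A1 (-0.39 ± 0.20), COL5A2 (-0.34 ± 0.18) and COL12A1 (-0.17 ± 0.12), with DESeq2 adjusted p-values from 0.391 to 0.818 in the authors' deposited table. COL12A1 had the next smallest p at 18 h against 2 h, with -0.33 ± 0.12 (DESeq2 adjusted p = 0.109, authors' deposited table).

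By distance, the collagen regions 1 to 10 kb from a start had 7 of 66 called at 18 h against 2 h (10.6%, against 2.56% of all tested regions at that distance). Those at 10 to 100 kb had 15 of 223 called (6.73%, against 3.93%) and those at 100 to 500 kb 7 of 162 (4.32%, against 4.66%). Of the 31 called regions 16 lay inside the annotated gene they were named for, 14 upstream of it and 1 downstream. Upstream regions were called in 14 of 130 cases (10.8%) and regions inside the gene, starts included, in 16 of 314 (5.10%), against 3.48% of all tested regions at any place. COL5A1 supplied 5 of the 14 upstream calls. The called regions had a median mean signal of 185, against 98.4 for those tested and not called. Higher signal gives smaller standard errors, and its part in this difference was not tested.

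The other genes of collagen biology were read from 4 lists. Genes of collagen synthesis and secretion had 2 of 101 tested regions higher at 2 h (1.98%, against 1.28% of all), 0 of 61 called at 18 h against mock by DESeq2 (against 0.121% of all; 0 at an unadjusted p under 0.05, against 7.89% of all), and 5 lower and 1 higher of 128 at 18 h against 2 h (4.69%, against 3.48% of all). TMEM38B, an endoplasmic reticulum channel gene needed for collagen modification, rose by 1.08 ± 0.26 (DESeq2 adjusted p = 0.00599) at 2 h at a region 217 kb away from the gene start, and the same region had -0.99 ± 0.25 (0.00624) at 18 h against 2 h, in the authors' deposited table. The 6 calls at 18 h against 2 h lay at 4 genes. TMEM38B also held lower calls at 139 kb (-0.88 ± 0.26, DESeq2 adjusted p = 0.0300) and 583 kb (-0.62 ± 0.17, 0.0122), in the authors' deposited table. P3H2, a prolyl hydroxylase that acts on type IV collagen, rose by 0.68 ± 0.20 (DESeq2 adjusted p = 0.0450) at 2 h and had -0.84 ± 0.20 (0.00196) at 18 h against 2 h, at 213 kb, in the authors' deposited table. SERPINH1, which encodes the collagen chaperone HSP47, went the other way at 13.9 kb, with 0.68 ± 0.14 (DESeq2 adjusted p = 0.000108) at 18 h against 2 h, -0.44 ± 0.14 (0.0787) at 2 h against mock and 0.24 ± 0.13 (0.700) at 18 h against mock in the authors' deposited table. PLOD2, a lysyl hydroxylase that sets collagen cross-links, had -0.42 ± 0.14 (DESeq2 adjusted p = 0.0497) at a region 28.7 kb from the start, at 18 h against 2 h in the authors' deposited table.

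Processing and cross-linking genes had 1 higher and 1 lower of 121 tested regions at 2 h (1.65%, against 1.28% of all), 0 of 73 at 18 h against mock by DESeq2 (against 0.121% of all), and 2 lower of 154 at 18 h against 2 h (1.30%, against 3.48% of all). At 18 h against mock 9 of the 73 had an unadjusted p under 0.05, against 7.89% of all. At 18 h against 2 h 24 of the 154 did, a larger share than the 11.6% of all, though the share called was smaller. The lysyl oxidase relative LOXL1 rose by 0.76 ± 0.22 (DESeq2 adjusted p = 0.0398) at 2 h at 14.5 kb and had -0.88 ± 0.22 (0.00322) at 18 h against 2 h in the authors' deposited table. A LOXL4 region at 20.9 kb fell by 0.44 ± 0.11 (DESeq2 adjusted p = 0.00914, authors' deposited table) at 2 h. A region at 26.2 kb from BMP1, which encodes the protease that trims procollagen, had -0.70 ± 0.21 at 18 h against 2 h (DESeq2 adjusted p = 0.0366, authors' deposited table). Collagen receptors had 1 of 130 tested regions lower at 2 h (0.769%, against 1.28% of all called), 0 of 93 at 18 h against mock by DESeq2 (against 0.121% of all), and 1 higher and 1 lower of 156 at 18 h against 2 h (1.28%, against 3.48% of all). At 18 h against mock 7 of the 93 had an unadjusted p under 0.05, against 7.89% of all, and at 18 h against 2 h 17 of the 156, against 11.6% of all. The receptor tyrosine kinase DDR1 fell by 0.65 ± 0.16 (DESeq2 adjusted p = 0.00667) at 2 h at 9.18 kb, in the authors' deposited table. At 18 h against 2 h that region had 0.62 ± 0.16 (DESeq2 adjusted p = 0.00447), while a DDR2 region at 40.7 kb had -0.80 ± 0.24 (0.0269), in the authors' deposited table.

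Genes of collagen degradation had 0 of 73 tested regions called at 2 h (against 1.28% of all) and 0 of 42 at 18 h against mock (against 0.121% of all) by DESeq2, and 1 lower of 98 at 18 h against 2 h (1.02%, against 3.48% of all). An unadjusted p under 0.05 was found for 4 of the 73 at 2 h, against 10% of all, and for 4 of the 42 at 18 h against mock, against 7.89% of all. At 18 h against 2 h it was found for 8 of the 98, against 11.6% of all. The region called lower at 18 h against 2 h lay 110 kb from MMP2, a gelatinase gene. In that comparison it had -0.47 ± 0.09 (DESeq2 adjusted p = 9.43e-05) in the authors' deposited table. Median log2 fold changes of the 4 lists at 18 h against 2 h lay between -0.06 and 0.03, against 0.01 over all tested regions.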

How the data were processed

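Each group has 2 ATAC-seq libraries of A375 cells. Per the submitters' processing notes, reads were handled with bcl2fastq 2.17, DESeq2 and the hg38 build; the aligner, peak caller, counter and any shift for the transposase are not given in the sources used here. Per the file headers, the authors deposited for each region a mean signal (baseMean, reads over size factors, over all 6 libraries), a log2 fold change with its SE, a Wald score, and a p-value and adjusted p-value, with a gene name and a distance to its start. The tables used here hold 0 columns with values of a single library, so the authors' DESeq2 test was used as it stands in place of a new count test. The mean signals were identical in the 3 tables, and subtracting the 2 h from the 18 h fold change against mock returned the third table's value within 1.02e-14, so all come from 1 fit.

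A region counted as tested where its mean signal reached the authors' limit (56.2 at 2 h and 101 at 18 h against mock, and 41.7 between both times). Regions listed under several genes entered once. Group levels were implied from the mean signal and both fold changes against mock, assuming that fitted and average levels agree; they are approximate and are no values of the authors. Centring on the median or within 20 bins of mean signal, no filter, and a limit at the median signal were run as alternatives. For these the p-values were adjusted anew (Benjamini-Hochberg). Other thresholds and narrower sets by distance or gene span count the deposited adjusted p-values. Gene spans and sequences are RefSeq's (GRCh38.p14, which shares hg38 coordinates), and whether the deposited coordinates count from 0 or 1 is not stated. Genes are named where a region was called, or had the smallest p of its class or list. The members and lists were chosen with earlier results of these data known. Python 3.11.15, pandas 2.3.3, numpy 2.4.6 and scipy 1.17.1 were used. Depth per library is unknown, so no counting interval is given.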

Additional observations from a re-analysis of the deposited data

Results flagged for a closer look

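At 6 collagen regions called against mock at one time, the change differed between 18 h and 2 h by the authors' direct test, with log2 differences from the authors' deposited table. These were -1.45 (COL4A2, 178 kb), -0.97 (COL13A1), -0.95 (COL26A1), -0.65 (COL4A2, 40.6 kb), -0.60 (COL1A1) and -0.56 (COL5A1, 38.7 kb upstream). At COL1A1 the call against mock was at 18 h, and at the others at 2 h. The comparisons share libraries, and the regions were picked by their calls.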

How the results depend on the processing

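No paired analysis was possible because the deposited tables hold no value per library; for the same reason, leaving out replicates and another normalization were not run. No call changed direction under the alternatives run. At 2 h against mock, 6 collagen calls became 11 after centring within bins of mean signal, 1 at an adjusted p under 0.01 and 2 without the filter on low signal. At 18 h against mock, centring on the median or within bins, an adjusted p under 0.01 or no filter left 0 calls. The 1 call as deposited lay outside the gene it was named for, and an adjusted p under 0.1 gave 2 calls. At 18 h against 2 h, 31 calls became 17 at an adjusted p under 0.01. Centring on the median and within bins gave 31 and 32. Of the 31 calls as deposited, 16 lay inside the annotated genes. The 1 start call became 0 at an adjusted p under 0.01. The sets by place count the same calls over fewer regions. A stricter threshold can only remove calls, and a looser one can only add them. Without the filter the same p-values are adjusted over more regions. Centring subtracts the median of the tested regions or of their bin, and why these medians lay off 0 was not tested. With 2 libraries a group, small differences at weak regions are not detectable.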
